A study of Mus musculus with 4 samples.

Results

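The cells described here are regulatory T (Treg) cells with high RNA of genes that load and fire replication origins and little RNA of mitosis genes. They were 536 of the 20109 T cell barcodes that passed the filters, out of 24546 deposited barcodes. A barcode was taken when it had at least 500 genes, at most 10% mitochondrial UMIs (unique molecular identifiers, 1 per captured RNA molecule) and at least 1 UMI of the T cell receptor chains Cd3e, Cd3d or Cd3g. It also needed at least 8 UMIs summed over Mcm2, Mcm3, Mcm5, Mcm6, Gins2, Hells, Ung, Cdc6, Lig1 and Tk1, and fewer than 8 summed over Ccnb1, Ccnb2, Cdc20, Cenpf, Ube2c, Tpx2, Birc5, Top2a and Mki67. The working name for such cells was Treg cells in DNA synthesis, or S phase. Replication-dependent histone RNA, a mark of ongoing DNA synthesis that the rule did not read, was near the level of non-cycling cells in most of them, as given further on. They are therefore called MCM-high cells here, after their leading genes.

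The study compared Treg cells of liver and spleen at 2 ages. Lymphocytes came from C57BL/6 mice with a green fluorescent reporter of Foxp3, the transcription factor that defines the Treg lineage. CD4+ cells were enriched on CD4 (L3T4) microbeads, CD4+ Foxp3GFP+ cells were then sorted by flow cytometry, and single-cell 5' libraries were made. There was 1 library for each of 12-day liver, 12-day spleen, 7-week liver and 7-week spleen. The 12-day mice carried Foxp3GFP-Cre and a Rosa26 loxP-Stop-loxP-YFP allele, so that Cre was driven by Foxp3. For the 7-week mice the labels give the Foxp3GFP reporter and no further allele, and their stage is written as "aged". Age and these alleles therefore cannot be told apart in any comparison of 12 days with 7 weeks. The number of mice behind each library is not in the labels.

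With 1 library for each age and tissue there was no test, and no spread between animals can be given. The intervals below are exact 95% intervals and cover counting error only. The 4 libraries held 32519356, 33813594, 7442185 and 20246352 UMIs in the order 12-day liver, 12-day spleen, 7-week liver, 7-week spleen, and every list of 4 values below follows that order. MCM-high cells numbered 214, 243, 11 and 68 and held 2470521, 2753341, 102386 and 644917 of those UMIs. The 7-week liver thus rests on 11 cells. Between 23 and 91 barcodes were shared by a pair of libraries, and none was an MCM-high cell in both.

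Before a cell copies its DNA, Cdc6 and Cdt1 load the MCM2-7 helicase onto replication origins, while E2F transcription factors switch on the genes of this machinery as the retinoblastoma block is released. During S phase the helicase unwinds DNA ahead of the polymerases, and the replication-dependent histone genes are strongly transcribed to package the new DNA. Genes of mitosis follow later, many of them through a promoter element called the CHR (cell cycle genes homology region). Treg cells divide in the young animal and in tissues in response to antigen and IL-2.

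E2F-type letters stood in the promoters of most of the S genes that chose the cells, and those promoters are shown because they are the shared sequence of the rule. Promoters were taken from RefSeq on GRCm38.p6 as 300 bases, 250 before to 50 after the gene start. The letters searched on both strands were TTTGGCGC, TTTCGCGC, TTTCCCGC and TTTGCCGC for E2F and TTTGAA for the CHR. The E2F letters can overlap each other in a palindrome. The E2F letters were in 2.26% of 32851 promoter windows, which is 2.605% of their 27025 genes. They were in 5.36% of the 1715 matched genes among those measured in MCM-high cells. Of the 10 S genes of the rule 9 matched the table, and 6 of the 9 held the letters: Mcm3, Mcm5, Mcm6, Hells, Cdc6 and Lig1. The starts are those of RefSeq, and GENCODE vM21 places 2 of these genes otherwise. In it Cdc6 begins at base 98907801, before the whole stretch shown, and Hells at 38930915, within the stretch shown. In the lines that follow each sequence runs 5' to 3' on the strand of the gene up to the base before its RefSeq start. Capitals mark only the E2F letters in Mcm5, Mcm6, Cdc6, Hells, Mcm7 and Ranbp1, and only TTTGAA in Kif11, Hmgb2 and Cks1b.
Mcm5, chr8:75109309-75109508, plus strand: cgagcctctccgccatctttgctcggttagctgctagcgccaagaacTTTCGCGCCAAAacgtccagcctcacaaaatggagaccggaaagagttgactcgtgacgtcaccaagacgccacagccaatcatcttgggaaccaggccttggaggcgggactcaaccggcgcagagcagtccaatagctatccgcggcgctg
Mcm6, chr1:128359706-128359905, minus strand: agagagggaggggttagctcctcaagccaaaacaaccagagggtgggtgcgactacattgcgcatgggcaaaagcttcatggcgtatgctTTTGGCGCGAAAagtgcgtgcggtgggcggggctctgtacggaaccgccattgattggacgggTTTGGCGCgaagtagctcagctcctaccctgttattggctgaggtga
Cdc6, chr11:98907951-98908150, plus strand: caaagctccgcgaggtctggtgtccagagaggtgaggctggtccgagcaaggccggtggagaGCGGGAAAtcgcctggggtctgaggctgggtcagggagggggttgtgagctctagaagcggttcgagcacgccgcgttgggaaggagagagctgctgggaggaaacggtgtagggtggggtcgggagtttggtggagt
Hells, chr19:38930790-38930989, plus strand: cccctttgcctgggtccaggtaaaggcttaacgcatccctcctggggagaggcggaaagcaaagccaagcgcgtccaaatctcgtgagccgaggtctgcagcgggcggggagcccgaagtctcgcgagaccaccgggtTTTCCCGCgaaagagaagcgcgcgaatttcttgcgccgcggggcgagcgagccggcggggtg
In Mcm5 the 2 overlapping matches began 153 and 149 bases before the start. Mcm6 held 3 matches, beginning 110, 106 and 47 bases before the start. Mcm5 and Mcm6 encode subunits of the same helicase ring.

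Among genes outside the rule that were higher in MCM-high than in low-cycling cells of every library, 8 of the 40 matched (20%) held the E2F letters: Pclaf, Mcm7, Siva1, Tfdp1, Dnmt1, Ranbp1, Ptma and Tmpo. TTTGAA was in as many of these 40 genes, 8 (20%), against 13.3% of the measured genes. Mcm7, a further helicase subunit, and Ranbp1, a partner of the nuclear transport GTPase Ran, are shown because their RNA was not read by the rule. The Ranbp1 stretch also holds TTTGAA, which is left in lower case.
Mcm7, chr5:138171884-138172083, minus strand: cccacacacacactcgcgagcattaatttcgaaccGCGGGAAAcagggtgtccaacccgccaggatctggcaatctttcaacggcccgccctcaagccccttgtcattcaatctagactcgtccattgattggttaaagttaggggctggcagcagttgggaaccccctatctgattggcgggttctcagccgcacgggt
Ranbp1, chr16:18248695-18248894, minus strand: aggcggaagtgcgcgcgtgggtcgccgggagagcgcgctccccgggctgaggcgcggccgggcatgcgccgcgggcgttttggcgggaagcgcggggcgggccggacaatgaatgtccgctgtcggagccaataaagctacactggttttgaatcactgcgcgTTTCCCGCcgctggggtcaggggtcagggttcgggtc
Of the 58 genes that were lower in MCM-high than in mitosis-high cells, 35 had a matched promoter, and no replication-dependent histone gene had one. TTTGAA was in 25 of these 35 genes (71.4%), against 13.3% of the measured genes and 20.2% of all genes with a promoter window. Kif11, the motor that separates spindle poles, Hmgb2, a chromatin protein, and Cks1b, a subunit of cyclin-dependent kinases, are 3 of them.
Kif11, chr19:37376282-37376381, plus strand: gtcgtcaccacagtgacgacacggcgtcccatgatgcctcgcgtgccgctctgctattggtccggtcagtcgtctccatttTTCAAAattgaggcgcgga
Hmgb2, chr8:57511743-57511842, plus strand: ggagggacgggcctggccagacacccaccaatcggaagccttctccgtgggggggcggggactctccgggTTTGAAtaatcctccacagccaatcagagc
Cks1b, chr3:89418292-89418391, minus strand: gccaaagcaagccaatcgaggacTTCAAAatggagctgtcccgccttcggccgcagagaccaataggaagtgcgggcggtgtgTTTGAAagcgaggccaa
A match is a description of these letters in this window. Mcm7 has more than 1 annotated start and the window shown is 1 of 2.

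The cells were chosen by the UMIs of these 19 genes, which are therefore described without a test. Values are UMIs of a gene per 1000000 UMIs (CPM) in the summed MCM-high cells of a library. This 5' method counts RNA molecules, so CPM is not divided by gene length. Mcm6 had the highest CPM of the 10 S genes, at 567, 463, 576 and 636. Mcm3 followed at 343, 331, 342 and 408, and Mcm5 at 270, 264, 244 and 288. Mcm6 alone gave 28.6%, 25.5%, 30.7% and 29.2% of the UMIs in the sum. These helicase subunits, on chromosomes 1, 1 and 8 of GRCm38, thus carried most of the selection in every library. Ung, the uracil-DNA glycosylase that removes uracil from new DNA, was at 116, 168, 19.5 and 109 CPM, and was the S gene that varied most between libraries: 463 UMIs in the 12-day spleen and 2 in the 7-week liver. A Ung UMI was seen in 57.0%, 72.4%, 9.09% and 47.1% of MCM-high cells and in 0.948%, 2.09%, 1.30% and 1.71% of low-cycling cells, which were shallower. Cdc6, the origin loader, was lowest of the 10 in 3 libraries, at 33.6, 26.9, 78.1 and 37.2 CPM. Of cells on the border of the rule, 19, 38, 1 and 12 had an S sum of 7 and were outside, and 22, 22, 2 and 2 had a sum of 8 and were inside. A mitosis sum of 7 put 9, 5, 3 and 5 cells inside, and a sum of 8 kept 8, 2, 4 and 1 outside. The median S sum was 18, 16, 14 and 17 and the highest was 81, 73, 46 and 70.

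MCM-high cells were more frequent in the 12-day than in the 7-week library of both tissues. They were 3.81% (95% interval 3.33 to 4.35) of T cell barcodes in 12-day liver and 3.97% (3.495 to 4.49) in 12-day spleen. At 7 weeks they were 0.459% (0.229 to 0.820) in liver and 1.14% (0.884 to 1.44) in spleen. Liver and spleen had overlapping intervals at 12 days and did not overlap at 7 weeks. The rule counts UMIs, and deep cells pass it more easily: in 12-day liver 0.285% of the shallowest 25% of cells were MCM-high and 13.1% of the deepest 25%. Median UMIs of T cell barcodes also differed, at 4472, 4565.5, 2678 and 2949.5. When each cell was thinned to 2000 UMIs and a sum of 4 was asked for, the shares were 3.47%, 3.53%, 0.607% and 1.06%. These were in part other cells: 165, 188, 10 and 52 passed after thinning, and 104, 121, 7 and 37 passed both rules. The level of the thinned shares depends on the sum of 4. Thinning left out 859, 800, 748 and 1090 shallower cells, and the intervals of liver and spleen at 7 weeks then overlapped (0.292 to 1.11 and 0.795 to 1.39). The sex of the mice is not in the labels, and RNA of the X-linked Xist and the Y-linked Ddx3y was present in low-cycling cells of every library. Xist was at 310, 301, 128 and 147 CPM in them and Ddx3y at 9.52, 8.75, 26.0 and 29.4 CPM. The balance of these 2 RNAs thus differed between the 12-day and the 7-week libraries, which also differ in alleles and animals. In MCM-high cells Xist was at 293, 307, 68.4 and 206 CPM. The part of sex in the results between libraries was not tested.

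**Figure D1:**
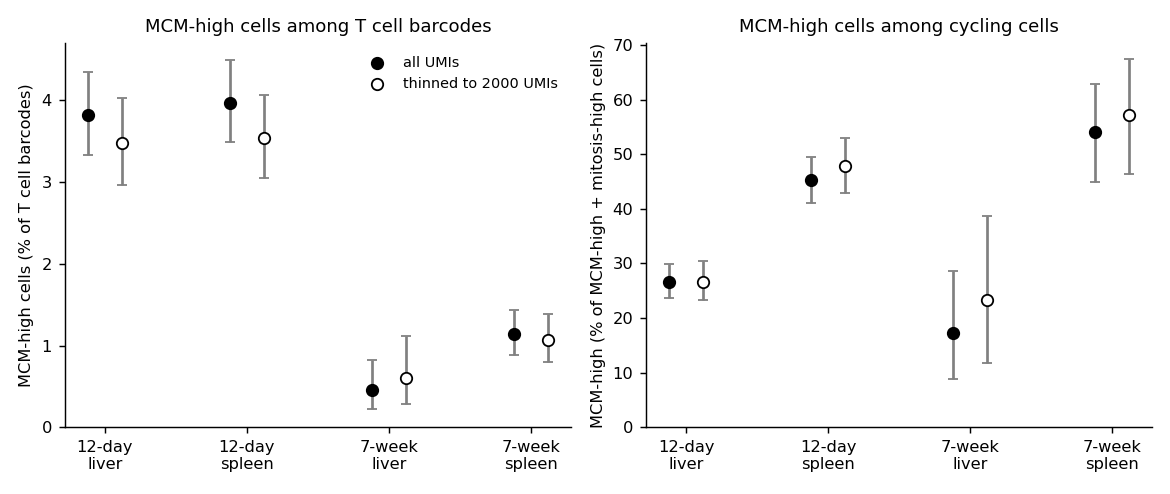
The left panel plots MCM-high cells as a percentage of T cell barcodes in each library and the right panel as a percentage of MCM-high plus mitosis-high cells; bars are exact 95% binomial intervals, filled points use all UMIs and open points use cells thinned to 2000 UMIs. Both 12-day libraries lie between 3.47% and 3.97% on the left, and both spleens lie above both livers on the right.

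Spleen had a larger part of its cycling cells in the MCM-high state than liver at both ages. Mitosis-high cells, with 8 or more UMIs of the 9 mitosis genes, numbered 589, 294, 53 and 58. MCM-high cells were 26.7% (23.6 to 29.9) of MCM-high plus mitosis-high cells in 12-day liver and 45.3% (41.0 to 49.6) in 12-day spleen. The values at 7 weeks were 17.2% (8.90 to 28.7) in liver and 54.0% (44.9 to 62.9) in spleen. Liver and spleen did not overlap at either age, and after thinning the values were 26.7%, 47.8%, 23.3% and 57.1%. Whether animals differ from each other in this ratio cannot be seen from 1 library.

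Replication-dependent histone genes are the direct check of the working name, since the rule read none of them. In MCM-high cells the 65 histone genes summed to 565, 366, 625 and 377 CPM, against 409, 351, 436 and 337 CPM in low-cycling cells, which had at most 2 UMIs of either sum. The ratio was 1.38 (1.30 to 1.46), 1.04 (0.977 to 1.11), 1.43 (1.10 to 1.84) and 1.12 (0.979 to 1.27). In cells that passed both sums, called double-high cells, the histone sum was 7906, 6798, 9838 and 12918.5 CPM. That was 14 (13.3 to 14.8), 18.6 (17.4 to 19.8), 15.7 (12.3 to 20.5) and 34.3 (30.1 to 39.2) times the level in MCM-high cells. The high histone RNA of these libraries was thus in cells that the rule leaves out. These histone RNAs mostly lack a poly(A) tail and their capture by an oligo(dT) primer is partial, so the levels compare classes within these libraries and not with other genes. Near-identical histone copies make single members uncertain and the sum is used.

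Within the MCM-high cells histone RNA moved with the mitosis sum. In the 83, 131, 4 and 30 cells with no UMI of any mitosis gene, the histone sum was 290, 246, 158 and 250 CPM. These values were below the low-cycling cells of the same library by ratios of 0.709, 0.701, 0.362 and 0.743, and no upper interval bound reached 1. The sum was 374, 324, 543 and 309 CPM at a mitosis sum of 1 to 2, and 1076, 760.1, 1066 and 704 CPM at 3 to 7. Double-high cells just past the border, with 8 to 15 UMIs, had 3317, 3316, 4344 and 4713 CPM. Cells with at least 20 histone UMIs were 5.14%, 2.06%, 0% and 1.47% of MCM-high cells and 84.7%, 78.9%, 38.9% and 68.0% of double-high cells. The 0 of 11 cells in 7-week liver allows a share of up to 27.3%. Cells without a mitosis UMI were also shallower, with median UMIs of 9282, 10195, 8164.5 and 8378 against 13742.5, 14672.5, 10818.5 and 11697 at sums of 3 to 7, and the part of depth in this order was not tested.

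**Figure D2:**
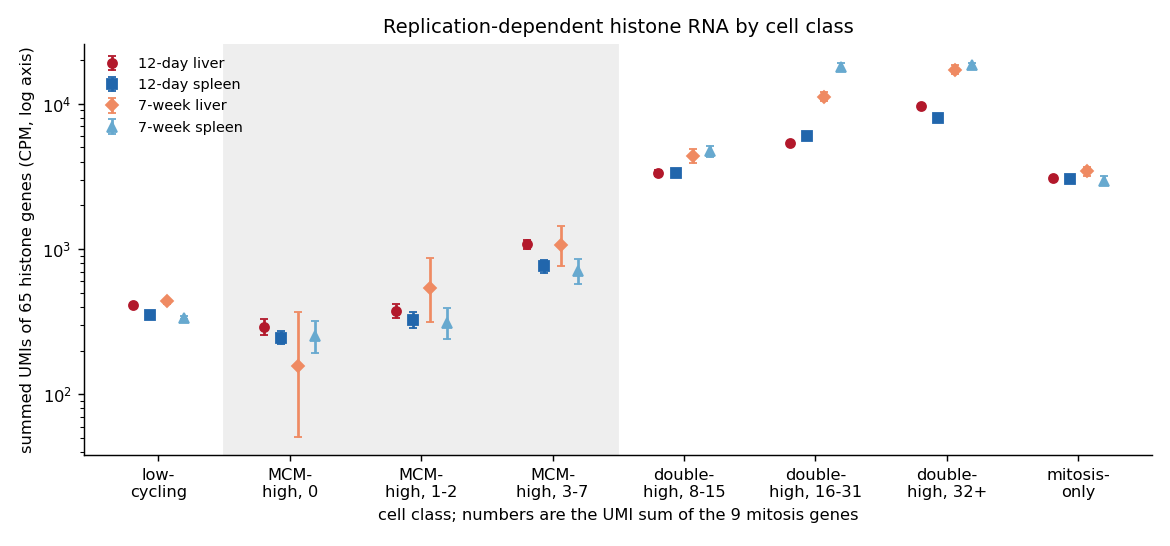
Summed CPM of the 65 replication-dependent histone genes (log axis) is plotted by cell class and library, with exact 95% Poisson intervals; the numbers under MCM-high (grey) and double-high are the UMI sum of the 9 mitosis genes. MCM-high cells with a sum of 0 lie at 158 to 290 CPM and double-high cells with a sum of 32 or more at 8031 to 18348 CPM.

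Against low-cycling cells of the same library, MCM-high cells had higher RNA of the rest of the replication machinery. A gene was called where it was at least 2-fold higher, or lower, in all 4 libraries, provided that the class with the higher value reached 50 CPM and 10 UMIs. The rule chose the cells from the same RNA, and the counts describe them. Of 2160 genes measured in every library, without the 19 rule genes, 47 were higher (2.18%) and 27 lower (1.25%). The helicase and licensing, fork, nucleotide synthesis and chromatin assembly lists hold 22, 30, 25 and 20 genes, of which 3, 8, 10 and 11 were measured in every library. Among these, 3 of 3 helicase and licensing genes were higher, 7 of 8 polymerase, clamp and fork genes and 8 of 10 nucleotide synthesis genes, with 0 lower in each. Chromatin assembly had 6 of 11 higher and 0 lower. The median log2 ratios were 2.67, 2.02, 1.84 and 1.37, beside -0.07 over all 2160 genes. Members that passed the expression minimum only in MCM-high cells had to differ, so these counts are not evidence of their own.

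Mcm7 was at 235, 238, 215 and 229 CPM against 24.7, 30.9, 31.1 and 29.2 CPM in low-cycling cells, a ratio of 9.50 (8.39 to 10.8), 7.69 (6.91 to 8.57), 6.91 (4.23 to 10.8) and 7.87 (6.51 to 9.47). Its level was nearly the same in the 4 libraries. Pcna, the sliding clamp of the polymerases, was at 213, 205, 283 and 239 CPM against 49.2, 51.7, 52.8 and 48.2, or 4.33 (3.88 to 4.83), 3.96 (3.58 to 4.38), 5.37 (3.54 to 7.86) and 4.95 (4.14 to 5.89) times. Tipin, which steadies the fork, was at 179, 179.8, 117 and 130.2 CPM against 24.9, 23.9, 18.3 and 19. Gmnn encodes geminin, which blocks a second loading of origins by binding Cdt1. It was at 168, 125, 117 and 105 CPM against 26.3, 18.2, 19.1 and 16.6.

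Nucleotide synthesis genes showed both even and uneven members. Dut, the dUTPase that keeps uracil out of DNA, was at 393, 342, 381 and 347 CPM against 63.4, 61.0, 58.3 and 57.7, a ratio of 6.20, 5.61, 6.53 and 6.02. Rrm2, the regulated subunit of ribonucleotide reductase, was at 123, 62.8, 273 and 62.0 CPM against 9.85, 6.60, 7.01 and 4.58. Its ratio was 12.5 (10.3 to 15.1), 9.52 (7.61 to 11.9), 39.0 (23.4 to 64.0) and 13.5 (9.02 to 19.99). Rrm2 was highest in the 11 cells of 7-week liver. Its partner subunit Rrm1 was at 106, 70.8, 127 and 96.1 CPM, and thymidylate synthase, Tyms, at 107, 80.3, 156 and 99.2.

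Chaf1b and Asf1b hand new histones to DNA, and both were higher in MCM-high cells although the histone RNA was not raised in step. Chaf1b was at 86.6, 79.9, 107 and 74.4 CPM against 14.9, 16.8, 11.3 and 7.36, and Asf1b at 64.0, 61.4, 107 and 77.5 against 5.83, 4.97, 6.06 and 6.62. Slbp, the protein that binds the stem-loop of histone RNA, was at 237, 246, 215 and 219 CPM against 100.1, 91.1, 87.5 and 82.8. Dnmt1, the enzyme that copies DNA methylation, was at 140.1, 175, 176 and 189 CPM against 32.2, 36.7, 45.9 and 46.5. All of these genes lay above low-cycling cells in each library.

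The largest median ratio was that of Pclaf, a protein that binds Pcna. It was at 184, 111, 381 and 79.1 CPM against 9.74, 4.27, 2.23 and 1.42, a ratio of 18.9 (15.9 to 22.6), 26.0 (20.7 to 33.1), 171 (90.7 to 340.1) and 55.9 (34.0 to 94.1). Stmn1, a regulator of microtubules, was at 219.8, 207, 410.2 and 192 CPM against 18.0, 13.6, 12.6 and 7.36. Both ran with the mitosis sum inside the MCM-high class. Stmn1 was at 94.3, 115, 442 and 78.5 CPM with no mitosis UMI and at 430.5, 423, 584 and 358 CPM with 3 to 7. When cells with a mitosis sum of 4 or more were left out, 17 genes were called higher, 16 of them among the 47, and 17 lower, 16 of them among the 27. Without the 7-week liver 127 were higher and 50 lower.

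**Figure D3:**
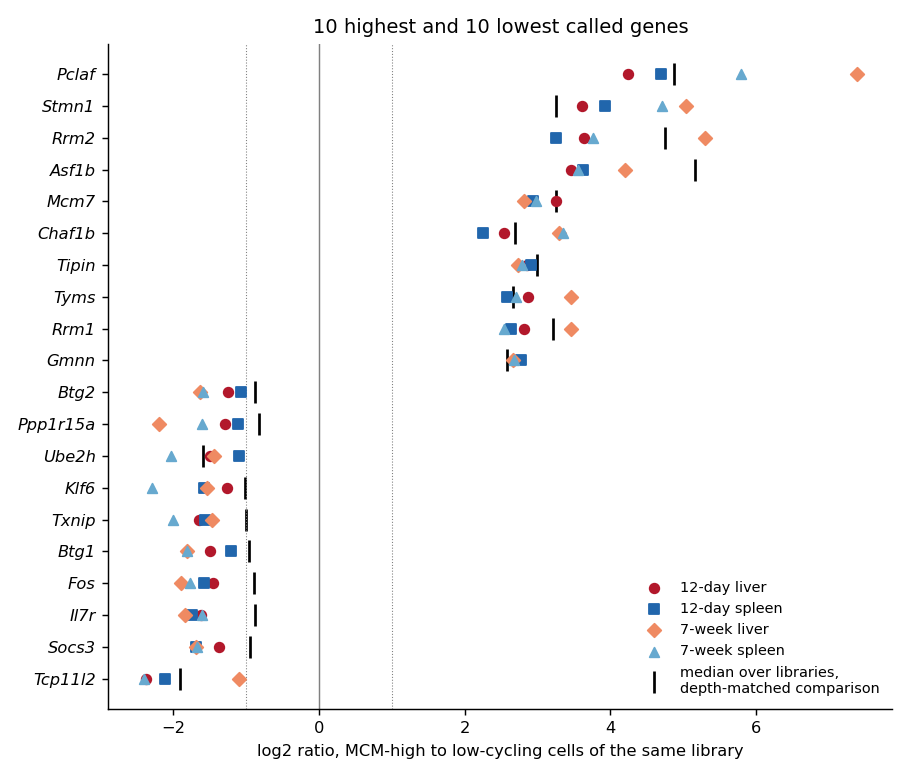
The log2 ratio of MCM-high to low-cycling cells is plotted for the 10 highest and 10 lowest called genes, 1 coloured point per library, with dotted lines at 2-fold; black bars give the median over libraries against low-cycling cells of matched depth. The points of the lower genes lie beyond 2-fold while most of their black bars lie at or inside the line.

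The 27 lower genes included Tcp11l2, Il7r, Btg1, Txnip and Fos, and the median differences of these 5 were smaller against cells of like depth. Tcp11l2 had the lowest median ratio: 30.4, 28, 68.4 and 18.6 CPM against 158, 122, 156 and 103. Il7r, the receptor for the survival cytokine IL-7, was at 63.1, 38.9, 87.9 and 79.1 CPM against 194, 131, 333 and 243, which was 3.07 (2.62 to 3.63), 3.36 (2.77 to 4.11), 3.78 (1.99 to 8.28) and 3.07 (2.33 to 4.13) times lower. Btg1, which restrains proliferation, was at 138, 184, 332 and 256 CPM against 389, 425, 1188 and 904. Txnip, an inhibitor of glucose uptake and thioredoxin, was at 149.8, 193, 234 and 121 CPM against 469.9, 571, 663 and 487. The early response gene Fos was at 72.9, 35.6, 156 and 62.0 CPM against 201, 107, 599 and 215. MCM-high cells were lower in each library for these 5 genes.

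Depth moved with this result. MCM-high cells had median UMIs of 10910, 10847, 9818 and 9122.5, low-cycling cells 3979.5, 4238, 2577 and 2874. Against the 265, 382, 28 and 94 low-cycling cells at or above the 25th percentile of the depth of MCM-high cells, 38 genes were higher (1.78%), 33 of them among the 47, and 1 gene was lower (0.0468%): Kdm5b, a histone demethylase, which was among the 27. All 27 still had a median below 0, at a median log2 ratio of -0.92 in place of -1.35, and 7 stayed at -1 or below. The 47 higher genes had a median of 1.62 in place of 1.78. Tcp11l2 was at -1.91 and Il7r at -0.87 in that comparison, in which the log2 ratio of Tcp11l2 was 0.08 in the 11 cells of 7-week liver.

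Lists of other functions had few called members. CDK inhibitors and quiescence genes had 0 higher and 2 lower, Btg1 and Btg2, of 9 measured (median log2 ratio -1.10). Resting and recirculation genes had 0 and 2 of 10, Il7r and Il6ra (-1.07), and IL-2 and STAT5 response genes 0 and 2 of 12, Socs3 and Pim1 (-0.66). Of 5 measured E2F, RB and G1 cyclin genes 2 were higher: Tfdp1, the partner of E2F proteins, and Cdk4, the G1 kinase (median -0.06). That median covers only the 5 genes that reached the expression minimum in every library. It does not describe E2F and G1 cyclin genes below that minimum. Cdk4 was at 264, 384, 205 and 333 CPM against 107, 144, 86.7 and 114, and against cells of like depth it had a median log2 ratio of 1.15 and was not called, at 0.75 in 7-week liver. Mitosis genes outside the rule had 3 higher of 9, Stmn1, Smc2 and Tuba1b (1.18), of which Tuba1b is a tubulin and Smc2 a condensin subunit. T cell receptor signal (none of 8, -0.57) and interferon response genes (none of 10, -0.50) held no called member. Effector Treg genes had none of 9 in either direction (0.08). Klf2, a factor that keeps T cells in circulation, was not called, at 191, 299, 606 and 214 CPM against 636, 694, 1080.2 and 637. The 7-week liver was the exception, at 1.78 times lower (1.39 to 2.33). Ribosome biogenesis had none of 7 called and a median of 1.09, and its summed 22 genes stood at 4559.8, 5611, 2217 and 5277 CPM against 2212, 2527, 2075 and 2485. In 3 libraries the sum was above 2-fold, and in the 11 cells of 7-week liver it was near the low-cycling level. Npm1, a nucleolar protein of this list, was at 1781, 1929, 1094 and 1966 CPM against 843, 863, 775 and 916. Glycolysis (none of 11, 0.79) and oxidative phosphorylation (none of 20, 0.43) lay above the median of all genes and held no called gene.

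A Cd3 UMI was part of the rule, and Foxp3, the gene of the sort, was not. Foxp3 was detected in 85.5%, 83.1%, 72.7% and 77.9% of MCM-high cells, against 23.2%, 25.9%, 58.6% and 42.9% of the 56, 58, 29 and 42 barcodes without a Cd3 UMI, whose median UMIs were 807, 978, 1039 and 1122. These barcodes were far shallower than MCM-high cells, so the shares are not at like depth. Foxp3 was at 277, 293, 205 and 237 CPM in MCM-high and 523, 454, 475 and 446 CPM in low-cycling cells, a log2 ratio of -0.92, -0.63, -1.18 and -0.91. Per cell the order was the opposite: 3.20, 3.32, 1.91 and 2.25 Foxp3 UMIs in MCM-high cells and 2.20, 2.03, 1.33 and 1.40 in low-cycling cells. Foxp3 thus took a smaller part of a larger total. Il2ra, the IL-2 receptor alpha chain, was at 115, 188, 146 and 191 CPM against 153, 200.3, 214 and 253, less than 2-fold apart in each library. Treg identity genes had 0 higher and 1 lower of 10 measured, the lower one being Nrp1, a receptor of thymic Treg cells, at 43.3, 36.7, 58.6 and 52.7 CPM against 87.6, 78.4, 160.2 and 137.

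Markers of macrophages, erythroid cells, hepatocytes and neutrophils were low, and lists of B cells, dendritic cells and CD8 T and NK cells held genes with clear RNA. Summed over 12 macrophage and monocyte genes MCM-high cells had 36.4, 30.9, 48.8 and 7.75 CPM, and low-cycling cells 45.3, 41.0, 29.3 and 31.7. Erythroid, hepatocyte and neutrophil lists each stayed below 50 CPM in every library. The macrophage genes Lyz2, Csf1r, Adgre1, Cd5l and Vsig4 were at 0 in MCM-high cells of 12-day liver, and Cd5l and Vsig4 in every library. The 9 B cell genes summed to 494, 254, 361 and 301 CPM in MCM-high and 651, 440, 502 and 397 CPM in low-cycling cells. Most of it was Ighm, the heavy chain of IgM, at 422, 231, 332 and 273 CPM against 592, 399, 473 and 370. At least 5 UMIs of this list were in 108, 55, 4 and 13 MCM-high cells. The B cell factor Pax5 was at 0 in MCM-high cells of every library. The 10 dendritic cell genes summed to 243, 238, 176 and 257 CPM against 340, 247, 226 and 297. Most of it was Cst3, a protease inhibitor, and Cd74, the invariant chain of MHC class II. The dendritic cell genes Flt3, Itgax, Siglech, Xcr1 and Zbtb46 were at 0 in MCM-high cells of every library. The part of these RNAs in the results was not tested. Only the 10 genes of CD8 T and NK cells were higher in MCM-high than in low-cycling cells of every library among these 3 lists, at 850.0, 239.7, 508 and 254 CPM against 505, 129, 109 and 76.0. Most of that was Nkg7, a cytotoxic granule protein, at 812, 195, 381 and 226 CPM against 484, 101, 69.8 and 48.4. The NK receptor Ncr1 was at 0 in every library, and Cd8a had a UMI in 1, 4, 0 and 2 MCM-high cells. Cd8b1, a further CD8 gene, had 13, 24, 5 and 12 UMIs in MCM-high cells. It was at 5.26, 8.72, 48.8 and 18.6 CPM against 11.9, 20.9, 19.1 and 19.1 in low-cycling cells. In the 7-week libraries 92.3% and 76.0% of the Nkg7 UMIs came from 5 cells. Cells marked as likely doublets by score were 11, 10, 0 and 2 of the MCM-high cells, and leaving them out moved no count of called genes by over 1.5 times.

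Against mitosis-high cells, MCM-high cells were lower for 58 of 2154 genes (2.69%) and higher for none (0%). Of the 58, 19 were among 30 measured mitosis genes outside the rule and 14 among 15 measured replication-dependent histones. Mitosis-high cells were chosen for mitosis RNA, and MCM-high cells for little of it. Genes that passed the expression minimum only in mitosis-high cells could only be called lower, so these counts are not evidence of their own. Chromatin assembly genes had 2 lower of 15, Hmgb2 and Lmnb1, a lamin of the nuclear envelope. Ccna2, the cyclin of late S phase and G2, was at 8.50, 5.81, 29.3 and 4.65 CPM against 414, 291, 264 and 221, or 48.7 (31.8 to 78.8), 50.05 (30.7 to 87.9), 9.01 (3.001 to 44.4) and 47.5 (15.9 to 234.1) times lower. The histone gene Hist1h2ap was at 43.3, 32, 186 and 85.3 CPM against 1673, 1379.9, 3661 and 3857. Plk1, a kinase of mitotic entry, was at 2.43, 2.91, 0 and 1.55 CPM against 160.4, 143, 91.3 and 99.4. Mitosis-high cells are a mixture, since 327, 161, 18 and 25 of them also passed the S sum. Split in this way, the comparison with double-high cells called none of 2141 genes higher (0%) and 57 lower (2.66%), and that with the 262, 133, 35 and 33 mitosis-only cells called 23 of 2167 higher (1.06%) and 65 lower (3%). The 23 included Siva1, Chaf1b, Tipin, Mcm4, Pcna, Cdk4, Tfdp1, Rpa2, Slbp and Dnmt1. Pcna was at 64.0, 60.4, 63.6 and 53.4 CPM in mitosis-only cells. This split was made after the values were seen.

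Ordered by the mitosis sum, genes of the S sum and its neighbours followed different courses. Ung went from 65.7, 144, 0 and 93.4 CPM in MCM-high cells with no mitosis UMI to 177, 239, 50.8 and 133 CPM with 3 to 7, and stood at 15, 26.2, 21.7 and 34.2 in double-high cells with 32 or more. MCM-high cells as a whole had 2.57 (2.15 to 3.07), 2.06 (1.75 to 2.43), 0.724 (0.0689 to 4.42) and 1.60 (0.955 to 2.82) times the Ung CPM of double-high cells. Only the 12-day libraries had intervals above 1. Rrm2 went from 18.6, 16.3, 31.6 and 7.48 CPM to 299, 198, 685 and 166 across the same MCM-high cells and stood at 703, 572, 304 and 1034 in double-high cells with 32 or more. In 7-week liver, with 4 cells in each of these 3 classes, it was thus lower at 32 or more than at 3 to 7. Pcna was highest at sums of 16 to 31, at 475, 470.4, 505 and 653 CPM, values that come from 5 cells in 7-week liver and 6 in 7-week spleen. Nkg7 was higher in MCM-high than in double-high cells in each library, by 2.45 (2.30 to 2.62), 1.53 (1.33 to 1.75), 3.53 (2.01 to 6.39) and 4.54 (2.62 to 8.52) times. The 7-week values rest mostly on the 5 cells with most Nkg7 UMIs given above. Ribosome biogenesis genes summed to 2837, 4091, 2385 and 3784 CPM in double-high cells, below MCM-high cells in 3 libraries and above them in 7-week liver. Cells of a higher sum were also deeper by choice, so these are orders along the rule and not times.

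**Figure D4:**
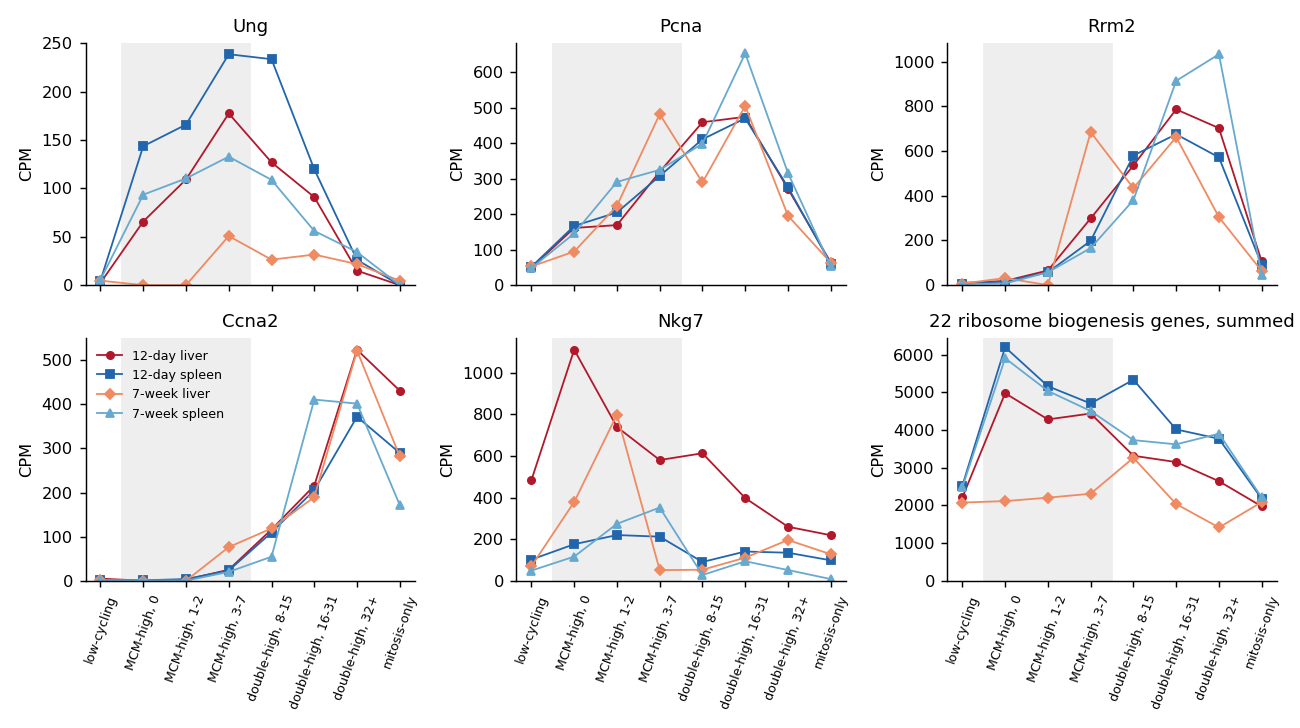
CPM of 5 genes and of 22 summed ribosome biogenesis genes is plotted from low-cycling cells through MCM-high cells (grey) and double-high cells, ordered by the UMI sum of 9 mitosis genes, to mitosis-only cells, with 1 line per library. Ung is highest at sums of 3 to 7, Pcna at 16 to 31, and Ccna2 stays at or below 76.1 CPM within the MCM-high class.

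Between tissues at 12 days, MCM-high cells of liver carried more RNA of effector Treg genes, and no listed replication gene was called. For contrasts between libraries a gene had to reach 100 CPM and 30 UMIs in its higher library and to differ 2-fold. Genes that passed this minimum in a single library could only be higher there. Counts of list members between libraries are therefore not evidence of their own. Of 1617 genes 44 were higher in liver (2.72%) and 21 lower (1.3%). Effector Treg genes had 12 of 17 measured members higher and none lower (median log2 ratio 1.48, beside 0.01 over all genes). Cxcr6, a chemokine receptor found on tissue lymphocytes, was at 202 CPM in liver and 28.7 in spleen, 7.03 times (5.53 to 9.03). Gzmb, the cytotoxic protease granzyme B, was at 929 and 238 CPM, 3.90 times (3.58 to 4.26). Tigit, an inhibitory receptor, was at 606 and 199 CPM, 3.04 times (2.75 to 3.36). Ly6a, the surface antigen Sca-1, was at 898 and 148 CPM, 6.06 times (5.45 to 6.75). Licensing, fork, nucleotide and chromatin genes had none of 4, 7, 12 and 13 measured members called, with medians of 0.26, 0.10, 0.05 and 0.05.

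Genes lower in liver MCM-high cells were led by Gsta4, Id3 and Itm2a. Id3, an inhibitor of E proteins, was at 37.6 CPM in liver and 284 in spleen, 7.54 times lower. Itm2a was at 51.4 and 279.7 CPM, 5.44 times lower, and Gsta4, a glutathione transferase, at 16.6 and 146, 8.78 times lower. Ccl3 and Ccl4, chemokines, were high in liver through few cells. Ccl3 had 361 UMIs in liver and 1 in spleen, 97.0% of them in 5 of 214 cells and 306 in a single cell. Ccl4 had 784 and 87 UMIs, 96.2% of the liver UMIs in 5 cells. Low-cycling cells of the same libraries differed in the same direction for 44 of the 44 higher and 21 of the 21 lower genes, by at least 2-fold for 35 and 7. Cxcr6 was at 136 and 18.3 CPM in them and the effector list had a median of 1.47. Whether the tissue difference was larger in MCM-high than in low-cycling cells was not tested.

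**Figure D5:**
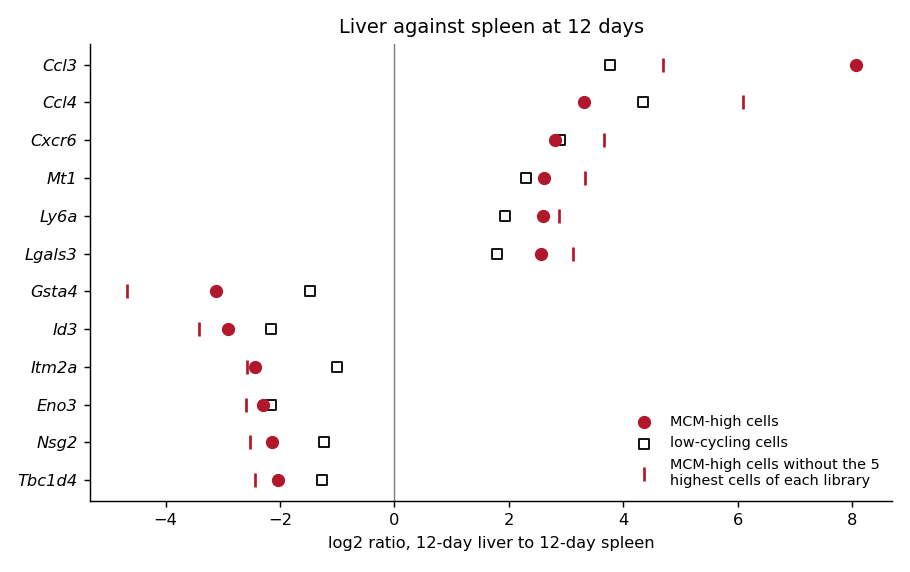
The log2 ratio of 12-day liver to 12-day spleen is plotted for the 6 highest and 6 lowest called genes, in MCM-high cells (circles), in low-cycling cells (squares) and in MCM-high cells without the 5 cells of each library with most UMIs of the gene (bars). All 3 marks of each gene lie on the same side of 0.

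Between the 12-day and 7-week spleens, which differ in age and in the alleles given above, MCM-high cells differed in few genes. Of 1597 measured genes 17 were higher at 12 days (1.06%) and 29 lower (1.82%). Gzmb was at 238 CPM at 12 days and 20.2 at 7 weeks, with all 13 UMIs of the 7-week cells in 5 cells, a ratio of 11.8 (6.86 to 22.3). Klrg1, a receptor of differentiated effector cells, was at 192 and 55.8 CPM, 3.45 times (2.46 to 4.98), and S100a4 at 398 and 133 CPM, 2.99 times (2.40 to 3.76). Rln3, which encodes the hormone relaxin-3, was at 710.0 and 155 CPM, 4.58 times (3.74 to 5.66). Effector Treg genes were split, with 5 higher and 2 lower of 12. Maf and Lag3, the 2 that were lower at 12 days, were at 61.0 against 141 CPM and at 62.8 against 138 CPM.

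The small GTPase Rac1 was at 72.3 CPM at 12 days and 330.3 at 7 weeks, 4.57 times lower, and the heat shock protein Hsph1 at 40.3 and 129 CPM, 3.19 times lower. Of 6 interferon response genes none was higher and 2 were lower at 12 days (median log2 ratio -0.91, beside 0.05 over all genes). Replication lists again had no called member among 3 licensing, 7 fork, 9 nucleotide and 12 chromatin genes. In low-cycling cells 17 of the 17 and 28 of the 29 genes had the same direction, and 9 and 14 were at least 2-fold apart. The 12-day spleen enters both this contrast and the one between tissues, so they are not independent of each other.

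The 7-week liver contrasts rest on 11 cells, and the one with 12-day liver also spans the difference in alleles. Against 7-week spleen 54 of 1068 genes were higher (5.06%) and 127 lower (11.9%), and 12-day liver against 7-week liver gave 142 of 1149 higher (12.4%) and 45 lower (3.92%). Low-cycling cells were at least 2-fold apart in the same direction for 7 of the 54 and 8 of the 127, and for 40 of the 142 and 13 of the 45. Replication genes were called here. Against 7-week spleen Pclaf, a partner of the replication clamp, was higher in 7-week liver (381 and 79.1 CPM), as was Hmgb2, while the histone chaperone Nasp and the nucleotide kinase Nme1 were lower. Against 12-day liver Pclaf was again higher in 7-week liver and Nasp lower. Ribosome biogenesis genes were lower in 7-week liver for 7 of 10 measured members in both contrasts, with medians of -1.31 for 7-week liver against spleen and 1.40 for 12-day against 7-week liver. In low-cycling cells these medians were -0.32 and 0.13. T cell receptor signal genes were lower in 7-week liver than in 7-week spleen for 4 of 5. Vim, the intermediate filament vimentin, was at 4385 CPM in 7-week liver and 873 in 7-week spleen, 5.02 times (4.43 to 5.70). S100a4 was at 566 and 133 CPM, with all 58 liver UMIs in 5 cells, and without the 5 highest cells of each library its direction reversed. That step took 5 of 11 liver cells but 5 of 68 spleen cells, and left 0 and 25 UMIs of S100a4. It thus lowers the liver value more by design. In low-cycling cells S100a4 was at 503 and 173 CPM. Penk, which encodes the enkephalin precursor, had no UMI in 7-week liver and 172 in 7-week spleen and 1106 in 12-day liver. It was at least 9.10-fold higher in 7-week spleen and at least 15.3-fold higher in 12-day liver, taking 3 UMIs as the floor of the library at 0. Most of the spleen UMIs of Penk came from 5 cells. Without the 5 highest cells 28 UMIs (46.9 CPM) were left in 7-week spleen and 682 (284 CPM) in 12-day liver. The floor of 3 UMIs in 7-week liver was 29.3 CPM. Ddx27, an RNA helicase of ribosome assembly, was also at 0 in 7-week liver and at least 4.34-fold higher in 7-week spleen. Ccr7, a lymph node homing receptor, was at 635 CPM in 7-week liver and 113 in 12-day liver. Without the 5 highest cells of each library 4 UMIs of Ccr7 were left in 7-week liver.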

How the data were processed

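The authors deposited unnormalised UMI counts for each gene and barcode. Per the file headers Cell Ranger 4.0.0 made them, and mm10 was the build per the submitters' processing notes, which also name Seurat 4.0.2. Which annotation release was used is not given in the sources used. GENCODE vM21 supplied positions and matched 99.6% of features. Counts of each class of cells were summed within a library with scanpy 1.11.5 and scaled to CPM. Log2 ratios had 0.5 UMIs added to each sum, and intervals are exact binomial or Poisson (scipy 1.17.1). Expression minimums and the 2-fold call stand in the report. Low-cycling cells had at most 2 UMIs of each sum. No test was made, since each age and tissue has 1 library.

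The members, gene lists and contrasts were chosen with earlier results of these data known. Named genes were the 10 highest and 10 lowest called genes by median ratio against low-cycling cells, up to 4 members of each list, and the 6 highest and lowest of every other comparison, without rule, ribosomal, mitochondrial, receptor segment and unnamed genes. Other genes named (Tigit, Siva1, Rpa2, Kdm5b and the promoter examples among them) were chosen after their values were seen, as were the splits of mitosis-high cells, the contrast without 7-week liver and the values without 5 cells. Scrublet's automatic threshold marked 0 cells and so did not work; the top-scoring cells, at 0.8% per 1000 cells, were marked and left out only as an alternative. TMM scaling used edgeR 4.0.16. The calling step was tested on simulated data. Ctf18 and Mx1 of the lists were not found among the features.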

Additional observations from a re-analysis of the deposited data

Results flagged for a closer look

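For 2 genes the liver minus spleen difference within MCM-high cells went one way at 12 days and the other at 7 weeks, and the difference between ages was not tested. Rgs1, a regulator of G protein signalling, had 354 UMIs in 12-day liver and 187 in 12-day spleen (143 and 67.9 CPM, log2 ratio 1.08), and 5 in 7-week liver and 76 in 7-week spleen (48.8 and 118 CPM, log2 ratio -1.14). Ms4a4b, a membrane protein of T cells, had 548 and 1259 UMIs at 12 days (222 and 457 CPM, log2 ratio -1.04), and 115 and 279 at 7 weeks (1123 and 433 CPM, log2 ratio 1.38). The 7-week liver values come from 11 cells.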

How the results depend on the processing

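No paired analysis was possible because the labels give no replicate numbers (1 library per age and tissue). Of 136 recomputed counts and shares, 103 stayed within the limits set for them and 33 moved. Genes called against low-cycling cells (47 higher, 27 lower) became 17 and 17 with a mitosis sum below 4, 17750 and 67 without a minimum of CPM or UMIs, 127 and 50 without 7-week liver, and 1 lower against depth-matched cells. The 17750 include genes with no UMI at all, because 0.5 UMIs were added to sums of unequal size. Rag1, with 0 UMIs in both classes, had log2 ratios of 2.88, 3.05, 5.94 and 4.78. That count therefore does not describe RNA of MCM-high cells. Against mitosis-high cells 0 higher became 3 with each cell weighted equally, 1 with an S sum of 12 or more, 2 with a mitosis sum below 4, 139 without a minimum, 19 without 7-week liver and 23 against mitosis-only cells, and 58 lower became 171 without a minimum and 112 without 7-week liver. Without a minimum the counts between libraries, which 0.5 added UMIs then set for genes with few UMIs, were 1858 higher and 1850 lower for 12-day liver against spleen, 24296 and 1448 for 7-week liver against spleen, 1222 and 24162 for 12-day against 7-week liver, and 1090 and 20593 for 12-day against 7-week spleen. In 7-week liver against spleen 54 higher became 32 with an S sum of 12 or more. In 12-day against 7-week liver 45 lower became 27 with that sum and 25 with a mitosis sum below 4. The share of MCM-high cells in 12-day liver (3.81%) was 4.42% among cells with a Foxp3 UMI, 2.67% with an S sum of 12 or more, 3.01% with a mitosis sum below 4 and 4.44% under a stricter cell filter (1000 genes, 5% mitochondrial UMIs). In 12-day spleen (3.97%) it was 4.72%, 2.84% and 4.60% with a Foxp3 UMI, the higher S sum and the stricter filter. With each library's 5 highest cells left out, the log2 ratio of S100a4 in 7-week liver against spleen became -2.38 (2.09 with all cells). It then rested on 0 UMIs in 7-week liver and 25 in 7-week spleen. The log2 ratio of Ccl3 in 12-day against 7-week liver became -1.01 (4.91 with all cells). Ccl3 then had 11 UMIs (4.55 CPM) in 12-day liver and 0 in 7-week liver, which also had 0 with all cells. The 12-day liver thus stayed the higher, and the 0.5 UMIs added to the smaller sum set the sign. The causes of the other changes were not tested. The 11 cells of 7-week liver, with 102386 UMIs, limit every value that uses them.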
